A study of Mus musculus with 26 samples.

Results

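The sterol and fatty acid synthesis programme of the choroid plexus (ChP) was followed through 34 genes, chosen by symbol as steps of sterol synthesis, steps of fatty acid synthesis and desaturation, regulators of the SREBP factors that drive both, and genes of sterol transport. All 34 of the 55416 genes of the deposited tables were found, and all 34 were among the 13697 genes with a mean CPM (counts scaled to a common library size) of at least 1 in both groups, the genes that were tested. ChP of the fourth ventricle was taken from adult male C57Bl6J mice after sham surgery (Ctrl) or after surgical ablation of the suprachiasmatic nuclei, the central circadian clock (SCNx). Both groups had been returned to a light-dark cycle for a week and were then kept in darkness, in which 1 mouse per group was killed every 4 h from circadian time (CT) 0 to CT44, giving 12 Ctrl and 12 SCNx libraries named here by group and CT. ChP of FoxJ1-ERT2-Cre+/-; Bmal1fl/fl mice (KO), which were fed tamoxifen so that the clock gene Bmal1 is deleted in cells where the Foxj1 promoter is active, came from 1 mouse at 7 h and 1 mouse at 18 h after lights on in a light-dark cycle. Per the paper, KO mice were males, older than the Ctrl mice, and their frozen tissue gave RNA of lower integrity. KO tissue was cut by laser from frozen brain and its libraries were made with another kit, and no KO control group was analysed here, so KO values are described without a test.

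Cells make cholesterol from acetyl-CoA through the mevalonate steps, which end in farnesyl pyrophosphate, and the squalene steps, which close and trim the sterol rings. SREBP factors sit in the endoplasmic reticulum bound to Scap, are held there by the Insig proteins when sterols are plentiful, and enter the nucleus when sterols fall, where they switch on nearly the whole pathway together. The ChP epithelium secretes cerebrospinal fluid and carries a large area of folded and ciliated membrane built from sterols and unsaturated fatty acids.

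Promoter letters are given for 4 members because SREBP and the CCAAT-binding factor NF-Y are the known partners at these genes. RefSeq promoters of GRCm38.p6 (250 bases before to 50 bases after a transcription start) were found for 27 of the 34 members, 35 promoters in all. In the sequences, read 5′ to 3′ on the gene's strand, capitals mark, on either strand, the letters CCAAT, the sterol response element TCACNCCAC and the E-box CACGTG where they occur. Hmgcs1 (chr13:119690101-119690400, + strand) encodes the enzyme that makes HMG-CoA, Mvd (chr8:122443373-122443672, − strand) the last enzyme of the mevalonate steps before isoprenoids, Insig1 (chr5:28071162-28071461, + strand) the sterol-controlled anchor, and Fasn (chr11:120824498-120824797, − strand) fatty acid synthase.
Hmgcs1: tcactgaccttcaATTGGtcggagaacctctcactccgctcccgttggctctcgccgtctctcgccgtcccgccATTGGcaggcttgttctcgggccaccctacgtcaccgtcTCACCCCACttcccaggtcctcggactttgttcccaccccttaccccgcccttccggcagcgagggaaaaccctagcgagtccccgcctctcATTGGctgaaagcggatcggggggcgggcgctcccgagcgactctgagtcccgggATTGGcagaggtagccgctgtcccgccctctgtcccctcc
Mvd: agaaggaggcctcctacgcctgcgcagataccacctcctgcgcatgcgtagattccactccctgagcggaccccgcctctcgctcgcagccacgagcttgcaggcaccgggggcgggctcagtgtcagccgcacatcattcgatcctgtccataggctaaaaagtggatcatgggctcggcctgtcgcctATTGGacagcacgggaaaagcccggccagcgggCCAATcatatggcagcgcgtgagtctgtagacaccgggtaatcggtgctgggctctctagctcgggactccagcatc
Insig1: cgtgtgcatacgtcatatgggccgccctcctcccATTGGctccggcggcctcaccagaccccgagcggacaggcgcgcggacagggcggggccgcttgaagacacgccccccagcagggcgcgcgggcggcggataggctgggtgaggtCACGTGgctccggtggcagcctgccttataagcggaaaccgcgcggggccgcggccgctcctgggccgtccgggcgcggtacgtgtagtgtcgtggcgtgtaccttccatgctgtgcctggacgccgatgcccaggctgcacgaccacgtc
Fasn: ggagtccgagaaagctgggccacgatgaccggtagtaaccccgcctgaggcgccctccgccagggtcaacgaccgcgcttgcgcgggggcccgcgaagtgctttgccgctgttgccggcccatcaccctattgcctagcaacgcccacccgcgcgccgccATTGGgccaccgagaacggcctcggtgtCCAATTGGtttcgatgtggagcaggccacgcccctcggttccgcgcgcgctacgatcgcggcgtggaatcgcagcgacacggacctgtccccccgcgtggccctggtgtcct
The letters TCACNCCAC stood in 1 of the 35 member promoters, that of Hmgcs1, and in 1.24% of all 32851 promoters. CCAAT stood in 21 of the 35, or 60%, against 37.4% of all promoters. The E-box CACGTG, the letters read by the clock factor pair that includes Bmal1, stood in 7 of the 35 or 20%, in 6 genes (Abca1, Dhcr7, Hsd17b7, Insig1, Sc5d and Scap), against 7.15% of all. Of these 7 promoters, 2 are overlapping windows of Scap that hold the same E-box. The D-box TTANNTAA stood only in the member promoter of Insig2 (6% of all promoters), and the Rev-erb and ROR element NTAGGTCA only in 2 overlapping promoter windows of Dhcr7 (2.59% of all). Both strands were searched, and these matches are letters in a window and not measured sites.

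The libraries held 38751201 to 47335258 estimated counts in Ctrl, 41807043 to 49527655 in SCNx, and 17425207 and 18059227 in KO. Markers of ChP epithelium summed to between 91573 and 105337 CPM in Ctrl and between 63260 and 103453 CPM in SCNx. A pair of libraries stood apart by hepatocyte markers (10 genes, none at 0 in either), with a summed 11084 CPM in SCNx CT0 and 2435 CPM in Ctrl CT16. The next libraries had 34.3 CPM (Ctrl CT40) and 11.5 CPM (SCNx CT8). The sum of 5 astrocyte markers was 713 CPM in Ctrl CT4 and 941 CPM in SCNx CT32, against medians of 55.6 and 51.1 CPM. Adipocyte markers were at most 3.12 CPM in any library. Liver makes sterols and fatty acids at a high rate, so each result below is given with and without Ctrl CT16 and SCNx CT0 where they change it.

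Desaturases were the most abundant members per length of transcript. On the scale of Ctrl mean CPM per kb of merged exon, Scd2, the stearoyl-CoA desaturase of brain, was at 251, and the polyunsaturated fatty acid desaturases Fads1 and Fads2 were at 103 and 101. Scd1, the liver and skin relative of Scd2, was at 82.5. Hmgcs1 led the sterol steps with 44.4, and the sterol step gene Tm7sf2 (2.12), the cholesterol carrier Stard4 (3.21) and the sterol step gene Hsd17b7 (3.27) were lowest of the members. Among regulators Srebf1, which favours fatty acid genes, was at 30.3, Insig2 at 25.9, Insig1 at 25.1, Srebf2, which favours sterol genes, at 21.0, and Scap at 10.6. These levels used exon lengths of another annotation release than the counts, and reads of near-identical copies (Acat2 and Acat3, Scd1 and Scd2, and pseudogenes of Fdps, Cyp51 and Hsd17b7) could have been divided differently by the counting.

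**Figure D1:**
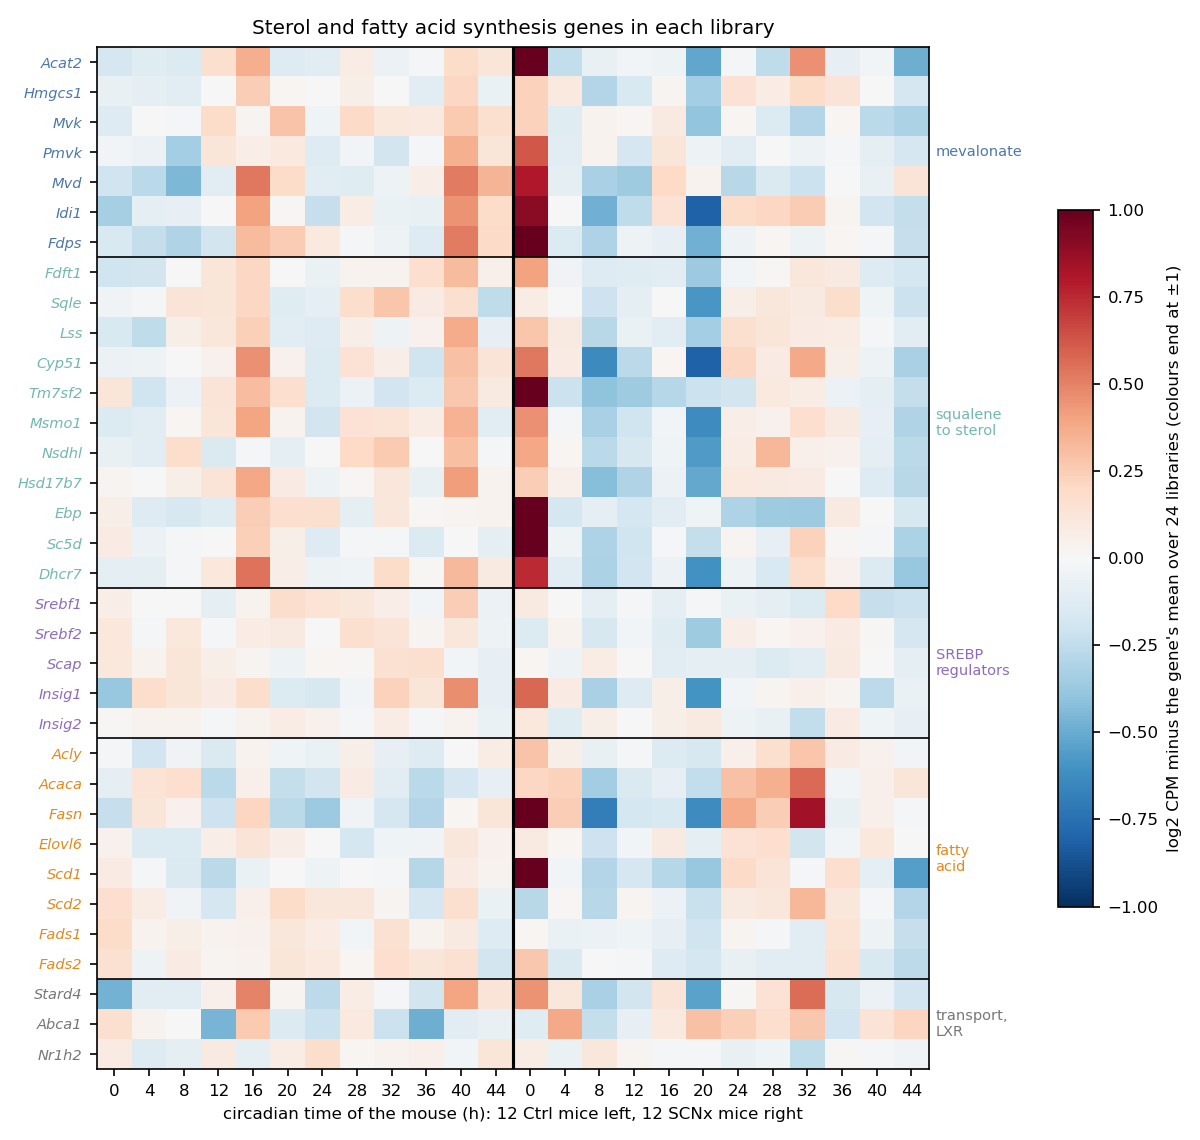
Each row is 1 of the 34 genes, coloured by role, and each column 1 mouse, in order of circadian time (h), Ctrl left and SCNx right. Colour is log2 CPM minus the gene's mean over the 24 libraries, with colours ending at ±1. Columns Ctrl CT16, Ctrl CT40 and SCNx CT0 are red and SCNx CT20 is blue across most of the sterol steps.

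In Ctrl the sterol steps were highest in the same phase of both days. Of the 18 mevalonate and squalene step genes, 15 had the highest level of the first day at CT16 and 16 had the highest level of the second day at CT40. Both held for 13 step genes, and for 16 of the 34 members, with Insig1, Elovl6 and Stard4 added to the step genes. Over all tested genes 2.89% had both maxima there. The mean log2 level of the 18 step genes, relative to the mean of the 24 libraries, was 0.29 in Ctrl CT16 and 0.30 in Ctrl CT40, and between -0.11 and 0.06 in the other 10 Ctrl mice. Hepatocyte markers summed to 2435 CPM in Ctrl CT16 and to 34.3 CPM in Ctrl CT40. The phase was picked after the values had been seen, each time is a single mouse, and genes that vary together do not count as separate observations.

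**Figure D2:**
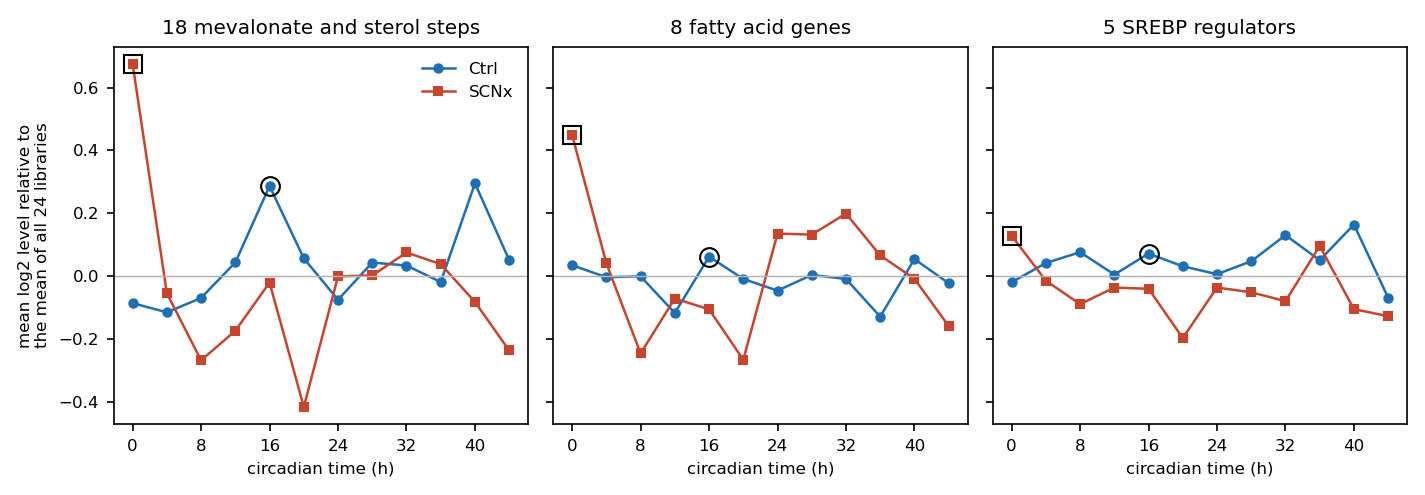
Mean log2 level of 3 groups of genes in each library, relative to the mean of the 24 libraries, against circadian time (h). Blue circles are Ctrl mice, red squares are SCNx mice, and the 2 libraries with hepatocyte transcripts are ringed. The step genes reach 0.29 and 0.30 at CT16 and CT40 in Ctrl, and 0.67 at CT0 and -0.42 at CT20 in SCNx.

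Mvd carried the clearest daily course. Its level in Ctrl was lowest at CT8 with 5.58 CPM, had a median of 7.21 CPM, and was highest at CT16 with 11 CPM and nearly as high at CT40 with 10.9 CPM. The fitted 24 h curve of Mvd (ENSMUSG00000006517) had an amplitude of 0.36 ± 0.069 on the log2 scale (SE), a peak at 17.1 h and a peak-to-trough fold of 1.65. It was the only member with a rhythm past the threshold in Ctrl, with an adjusted p of 0.0397 (edgeR, quasi-likelihood F test, Benjamini-Hochberg over all tested genes). The share of 2.94% of members (1 of 34) stood below the 10.7% of all tested genes that were called. The call was lost when Ctrl CT4, CT8, CT16, CT20, CT24, CT36, CT40 or CT44 was left out singly, with an adjusted p between 0.0543 and 0.102, and the peak stayed within 16 h to 17.5 h under all alternatives.

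At an unadjusted p under 0.05, 5 members (14.7%) had a rhythm in Ctrl against 24.8% of all tested genes. Elovl6, which lengthens palmitate, ranged in Ctrl from 102 CPM at CT28 through a median of 117 CPM to 127 CPM at CT16. Its amplitude was 0.12 ± 0.019 with a peak at 17.4 h, and its adjusted p was 0.0709. Fdft1, squalene synthase, ranged from 54.1 CPM at CT0 through 63.5 CPM to 77.1 CPM at CT40, with a peak at 14.2 h and an adjusted p of 0.112. Lss, which closes the sterol rings, ranged from 34.5 CPM at CT4 through 41.0 CPM to 53.3 CPM at CT40, with a peak at 14 h and an adjusted p of 0.126. Both squalene step genes were therefore highest in Ctrl CT40, with its 34.3 CPM of hepatocyte markers. Scap ranged from 71.9 CPM at CT44 through 78 CPM to 85.1 CPM at CT36, and its peak at 8.29 h (adjusted p of 0.172) lay in the subjective day. Sqle, squalene epoxidase and a slow step of the pathway, was next by p and ranged from 61.7 CPM at CT44 through 79.2 CPM to 89.5 CPM at CT32, with a peak at 9.98 h and an adjusted p of 0.231. Hmgcs1 ranged from 187 CPM at CT8 to 240 CPM at CT16 around a median of 203 CPM, with an adjusted p of 0.620. Fitted Ctrl peaks fell between 13 h and 20 h for 16 of the 18 step genes and for 25.1% of all tested genes, and without Ctrl CT16 and SCNx CT0 for 13 of 18 and for 28.2%.

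The number of rhythmic members in Ctrl depended on the libraries in the fit. Both groups were fitted together and share 1 estimate of each gene's spread, so SCNx libraries enter the test of a Ctrl rhythm. The median Ctrl amplitude of the members was 0.119 with all 24 libraries and 0.119 without SCNx CT0. Without SCNx CT0 alone, and also without both Ctrl CT16 and SCNx CT0, 4 members were called, namely Mvd, Pmvk, Fdps and Fdft1, of which Pmvk makes mevalonate pyrophosphate and Fdps farnesyl pyrophosphate. Without both libraries their adjusted p ranged from 0.0132 (Mvd) to 0.0333 (Fdps), with peaks from 14.2 h (Fdft1) to 18.3 h (Fdps), and the share of 11.8% of members stood near the 12.3% of all genes. With the Ctrl libraries fitted alone, 6 members were called (17.6% against 14.6% of all genes), the same 4 with Tm7sf2 and Elovl6. The count at an unadjusted p under 0.05 moved too and crossed the background. It was 17 members (50% against 31.2% of all genes) with Ctrl alone, 10 (29.4% against 27.6%) without both libraries and 10 (29.4% against 26.2%) without SCNx CT0 alone, but 3 (8.82% against 24.5%) without Ctrl CT4 and 2 (5.88% against 24%) without Ctrl CT40.

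**Figure D3:**
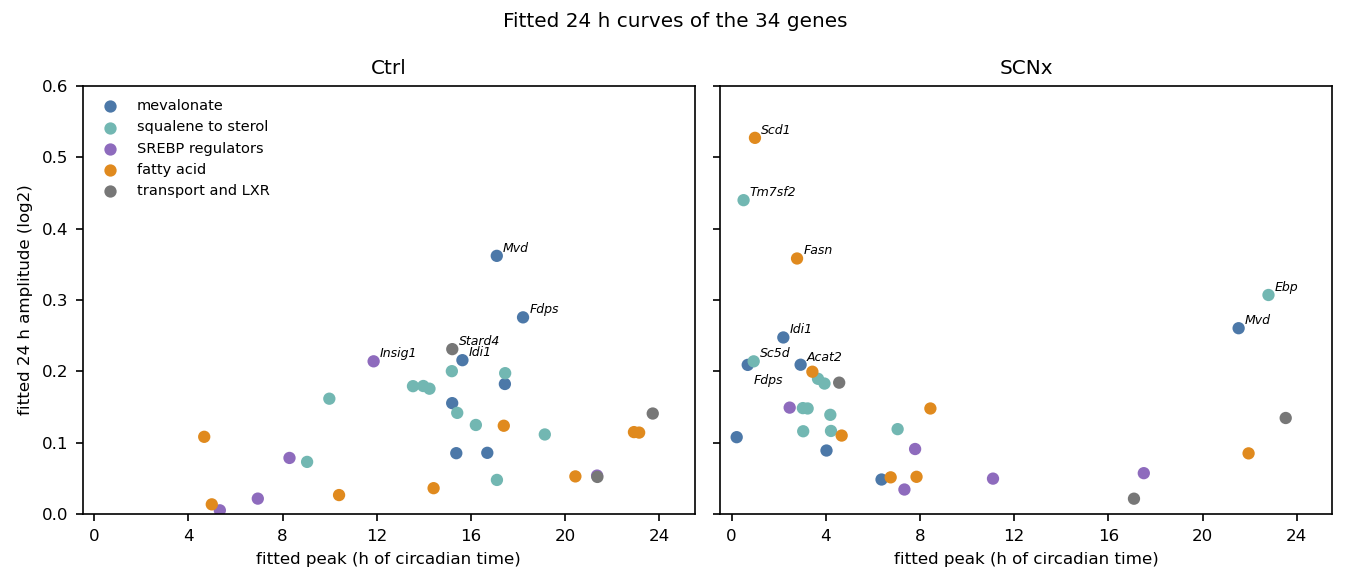
Fitted 24 h amplitude (log2) against fitted peak (h) for the 34 genes in Ctrl and SCNx, coloured by role, with the names of genes with larger amplitudes. With all 24 libraries, 16 of 18 step genes lie between 13 h and 20 h in Ctrl and 16 of 18 between 0 h and 8 h in SCNx (13 and 10 without Ctrl CT16 and SCNx CT0, not drawn), and only Mvd in Ctrl has an adjusted p under 0.05.

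In SCNx no member was called rhythmic by edgeR, and 0% of all tested genes were. At an unadjusted p under 0.05, 3 members (8.82%) had a rhythm, against 14.8% of all tested genes. With DESeq2 6 members (17.6% against 16.8% of all genes) and with limma-trend 0 members (against 9.93%) passed the unadjusted threshold. Neither called a member after adjustment, where DESeq2 called 3.15% of all genes and limma-trend 0%. The 3 members were highest in SCNx CT0, the library rich in hepatocyte transcripts. Scd1 was at 1625 CPM in SCNx CT0, with a median of 401 CPM and a lowest value of 285 CPM at CT44, and Ctrl mice stayed between 343 and 443 CPM. Tm7sf2, a sterol reductase, was at 27.1 CPM in SCNx CT0, with a median of 7.92 CPM and a lowest value of 6.87 CPM at CT8. Mvd was at 13.3 CPM in SCNx CT0, with a median of 7.19 CPM and a lowest value of 5.94 CPM at CT12. Without Ctrl CT16 and SCNx CT0 the amplitude of Scd1 in SCNx went from 0.53 to 0.16 (unadjusted p of 0.106) and that of Tm7sf2 from 0.44 to 0.068 (unadjusted p of 0.543), while 5 other members (14.7%, against 16.6% of all genes) passed an unadjusted p under 0.05 and none passed after adjustment. Single libraries moved the count of 3 as well, to 11 members (32.4% against 20.4% of all genes) without SCNx CT8, 6 (17.6% against 14.5%) without SCNx CT24, 5 (14.7% against 16.1%) without SCNx CT40 and 1 (2.94% against 14%) without SCNx CT12.

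SCNx CT0 was the highest library of the first day for all 18 step genes, where 23.4% of all tested genes had their maximum. The mean of the step genes was 0.67 there, against -0.42 to 0.08 in the other 11 SCNx mice. Sc5d, a late sterol desaturase, was at 140 CPM there against a group median of 67.7 CPM, Ebp, a sterol isomerase, at 49.4 CPM against 17.1 CPM, and Fdps at 103 CPM against 47.3 CPM. Fasn was at 196 CPM in SCNx CT0 but also at 171 CPM in SCNx CT32, which had 2.19 CPM of hepatocyte markers and 941 CPM of astrocyte markers, and its median was 96.7 CPM. Acaca, the carboxylase that feeds Fasn, was highest in SCNx CT32 too, with 91.0 CPM against a median of 65 CPM. What hepatocyte and astrocyte transcripts contributed to these values was not tested.

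At the other end, SCNx CT20 had the lowest step mean of the 24 libraries. Of the 18 step genes, 13 had the lowest SCNx level of the first day at CT20 and of the second day at CT44, against 2.61% of all tested genes. Among all members 19 did so, including Srebf2, Acly, Scd1, Fads1, Fads2 and Stard4. This phase was also picked after the values had been seen, and each time is a single mouse. Genes that vary together do not count as separate observations. Idi1, which isomerizes isopentenyl pyrophosphate, had its lowest value of any Ctrl or SCNx library there, 23.5 CPM, where the Ctrl mice lay between 32.8 and 56.3 CPM. Cyp51, lanosterol demethylase, was at 26.4 CPM in SCNx CT20 and 29.9 CPM in SCNx CT8, below every Ctrl mouse (40.5 to 63.6 CPM). When time of day was entered as 6 levels of 2 mice each, an alternative chosen after seeing the data, 17 members (50%) had an unadjusted p under 0.05 in SCNx against 13% of all tested genes, and none passed after adjustment (lowest adjusted p of 0.0667). Without Ctrl CT16 and SCNx CT0 the same fit gave 5 members, which is 14.7% against 11.4% of all genes.

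No member had a rhythm that differed between SCNx and Ctrl after adjustment in edgeR, DESeq2 or limma-trend, where in edgeR 2.12% of all tested genes did. At an unadjusted p under 0.05, 6 members (17.6%) differed against 15.1% of all tested genes. DESeq2 gave 8 (23.5% against 17%) and limma-trend 5 (14.7% against 13.5%). The edgeR count was 12 (35.3% against 19.4% of all genes) without SCNx CT8, 10 (29.4% against 15.1%) without SCNx CT0, and 3 (8.82% against 13.6% to 15%) when Ctrl CT16, Ctrl CT24, Ctrl CT40 or SCNx CT12 was left out. The smallest p belonged to Fdft1 (p of 0.00753, adjusted p of 0.145 in edgeR), with fitted peaks at 14.2 h in Ctrl and 4.22 h in SCNx, and to Lss (p of 0.00827, adjusted p of 0.149), with 14 h and 3.04 h. The fitted SCNx peak fell between 0 h and 8 h for 16 of the 18 step genes, against 37.4% of all tested genes, and without Ctrl CT16 and SCNx CT0 for 10 of 18, against 36.3%. Both windows of fitted peaks were chosen after the values had been seen. Fdft1 in SCNx ranged from 48.2 CPM at CT20 through 58.9 CPM to 81.8 CPM at CT0, and Lss from 32.5 CPM at CT20 through 41.9 CPM to 49.8 CPM at CT0. Without SCNx CT8, 1 member (2.94%, against 2.7% of all genes) was called in edgeR, namely Scd2 with an adjusted p of 0.0287. Scd2 in Ctrl was lowest at CT36 with 1182 CPM and highest at CT20 with 1513 CPM, and in SCNx lowest at CT44 with 1086 CPM and highest at CT32 with 1670 CPM. SCNx CT32 held 941 CPM of astrocyte and 288 CPM of neuron markers, and their part in this value was not tested.

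**Figure D4:**
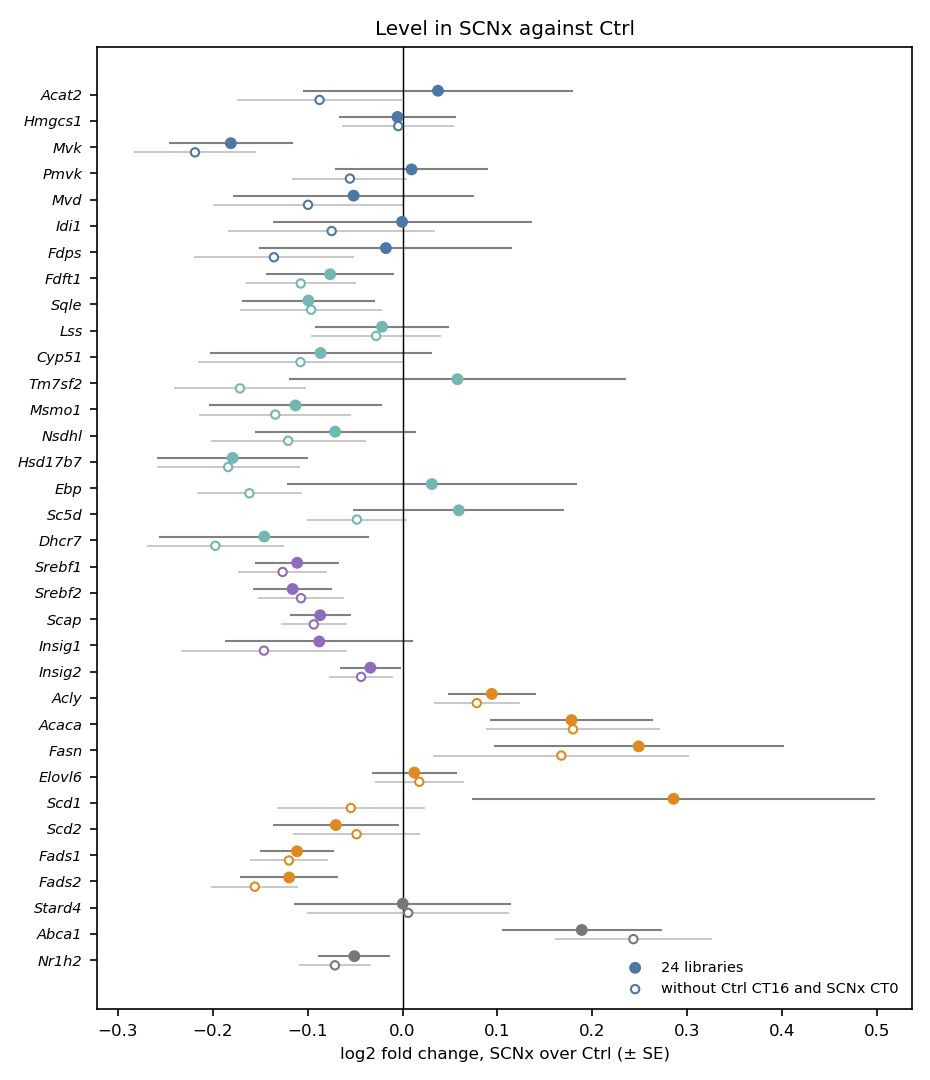
Log2 fold change of SCNx over Ctrl with its SE for the 34 genes, over all 24 libraries (filled) and without Ctrl CT16 and SCNx CT0 (open), coloured by role. All 5 SREBP regulators lie below 0 in both fits, Acly, Acaca, Fasn and Abca1 lie above 0 in both, and Scd1 lies on either side.

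Averaged over the time points, no member differed in level between SCNx and Ctrl after adjustment in edgeR, DESeq2 or limma-trend, and in edgeR 0% of all tested genes did (lowest adjusted p of a member 0.430). At an unadjusted p under 0.05, 7 members (20.6%) were lower in SCNx, where 4.58% of all tested genes were, and 2 members (5.88%) were higher, where 4.78% were. DESeq2 gave 9 members at that threshold (26.5%, against 9.61% of the genes with a p) and limma-trend 8 (23.5% against 8.29%). No member was higher without Ctrl CT4 and SCNx CT32, where 3.44% of all genes were. The same held with 1 library left out, for Ctrl CT12, CT20, CT24, CT32, CT36 or CT40 and SCNx CT4, CT24 or CT32. Without SCNx CT8, 4 members were higher, where 6.74% of all genes were. Lower members numbered 5 to 11 with 1 library left out, against 3.83% to 5.68% of all genes. In bulk tissue, fewer cells of a type and less RNA per cell cannot be told apart. The median log2 fold change was -0.042 over the members and 0.011 over all tested genes.

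The 7 lower members were 3 SREBP regulators, both polyunsaturated desaturases and 2 step genes, with small differences. Fads1 was between 437 CPM (CT44) and 543 CPM (CT0) in Ctrl with a median of 494 CPM, and between 406 CPM (CT44) and 525 CPM (CT36) in SCNx with a median of 459 CPM. Its log2 fold change was -0.11 ± 0.039 (SE, 12 mice a group, unadjusted p of 0.00815 in edgeR), and the ranges overlapped. Srebf2 was between 139 CPM and 161 CPM in Ctrl and between 113 CPM (CT20) and 153 CPM in SCNx, with medians of 153 and 143 CPM and a log2 fold change of -0.12 ± 0.042 (unadjusted p of 0.0102 in edgeR). Mvk, mevalonate kinase, was between 11.4 CPM and 15.2 CPM in Ctrl and between 9.51 CPM and 14.6 CPM in SCNx, with medians of 13.4 and 12.1 CPM and a log2 fold change of -0.18 ± 0.065 (unadjusted p of 0.0107 in edgeR). In each of the 3 genes most SCNx mice lay inside the Ctrl range. Scap (-0.087 ± 0.032), Srebf1 (-0.11 ± 0.044), Fads2 (-0.12 ± 0.052) and Hsd17b7 (-0.18 ± 0.080) completed the 7. Srebf1 ranged from 154 to 195 CPM in Ctrl and from 140 to 188 CPM in SCNx. Insig2, which varied least of all members in Ctrl (84.9 to 93.5 CPM, a coefficient of variation of 2.82%), had a log2 fold change of -0.034 ± 0.032. All 5 regulators thus had a value below 0, where 5959 of the 13697 tested genes did. The regulators were measured in the same mice and do not count as separate observations.

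Of the 8 fatty acid genes 5 had a value above 0 (Acly, Acaca, Fasn, Elovl6 and Scd1) and 3 below 0 (Scd2, Fads1 and Fads2), and Abca1 had a value above 0. Abca1, which exports cholesterol and is a target of the LXR receptors, ranged from 125 CPM (CT36) through 164 CPM to 210 CPM (CT16) in Ctrl and from 148 CPM (CT8) through 194 CPM to 227 CPM (CT4) in SCNx. Its log2 fold change was 0.19 ± 0.084 (unadjusted p of 0.0347 in edgeR), and 0.24 ± 0.083 without Ctrl CT16 and SCNx CT0. Acaca ranged from 50.7 CPM through 56.9 CPM to 68.9 CPM in Ctrl and from 48.1 CPM through 65 CPM to 91.0 CPM in SCNx, with a log2 fold change of 0.18 ± 0.086 (unadjusted p of 0.0489). Acly, which makes acetyl-CoA from citrate, ranged from 134 CPM through 148 CPM to 160 CPM in Ctrl and from 136 CPM through 158 CPM to 186 CPM in SCNx, with 0.094 ± 0.047 (unadjusted p of 0.0550). For Acaca and Acly the highest SCNx mice lay above every Ctrl mouse and the lowest did not stand apart. Fasn had 0.25 ± 0.15 and Scd1 0.29 ± 0.21, and without Ctrl CT16 and SCNx CT0 these were 0.17 ± 0.13 and -0.054 ± 0.078. Nr1h2, an LXR receptor, ranged from 39.7 to 49.1 CPM in Ctrl and from 36.4 to 47.0 CPM in SCNx, with -0.051 ± 0.038.

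Without Ctrl CT16 and SCNx CT0 the sterol steps moved further below 0. The median of the 34 members was then -0.095, where that of all tested genes was 0.0039, and 28 of 34 had a value below 0. At an unadjusted p under 0.05, 10 members were lower and 1 higher, against 5.11% and 6.21% of all tested genes. Without SCNx CT0 alone the member median was -0.11, where that of all tested genes was 0.0057, and 29 members were below 0. Left out singly, Ctrl CT16 and Ctrl CT40 moved the median the other way, to -0.016 (17 below 0) and -0.019 (18 below 0), and no other single library moved it by over 1.5 times. Ebp went from 0.031 ± 0.15 to -0.16 ± 0.056, Tm7sf2 from 0.058 ± 0.18 to -0.17 ± 0.070, and Dhcr7, the last step to cholesterol, from -0.15 ± 0.11 to -0.20 ± 0.072. None passed after adjustment (lowest adjusted p of 0.332 in edgeR).

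The step genes varied together from mouse to mouse. Over the 12 Ctrl libraries the median Pearson r of log2 CPM between 2 step genes was 0.58, with 142 of 153 pairs above 0. In SCNx it was 0.77, with 153 of 153 pairs above 0, and every 10th tested gene gave a median of -0.0030 and -0.00034. Without Ctrl CT16 the Ctrl median was 0.55, and without SCNx CT0 the SCNx median was 0.62. All pairs of a group share its libraries and their scaling, so these are descriptions and no test was made.

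**Figure D5:**
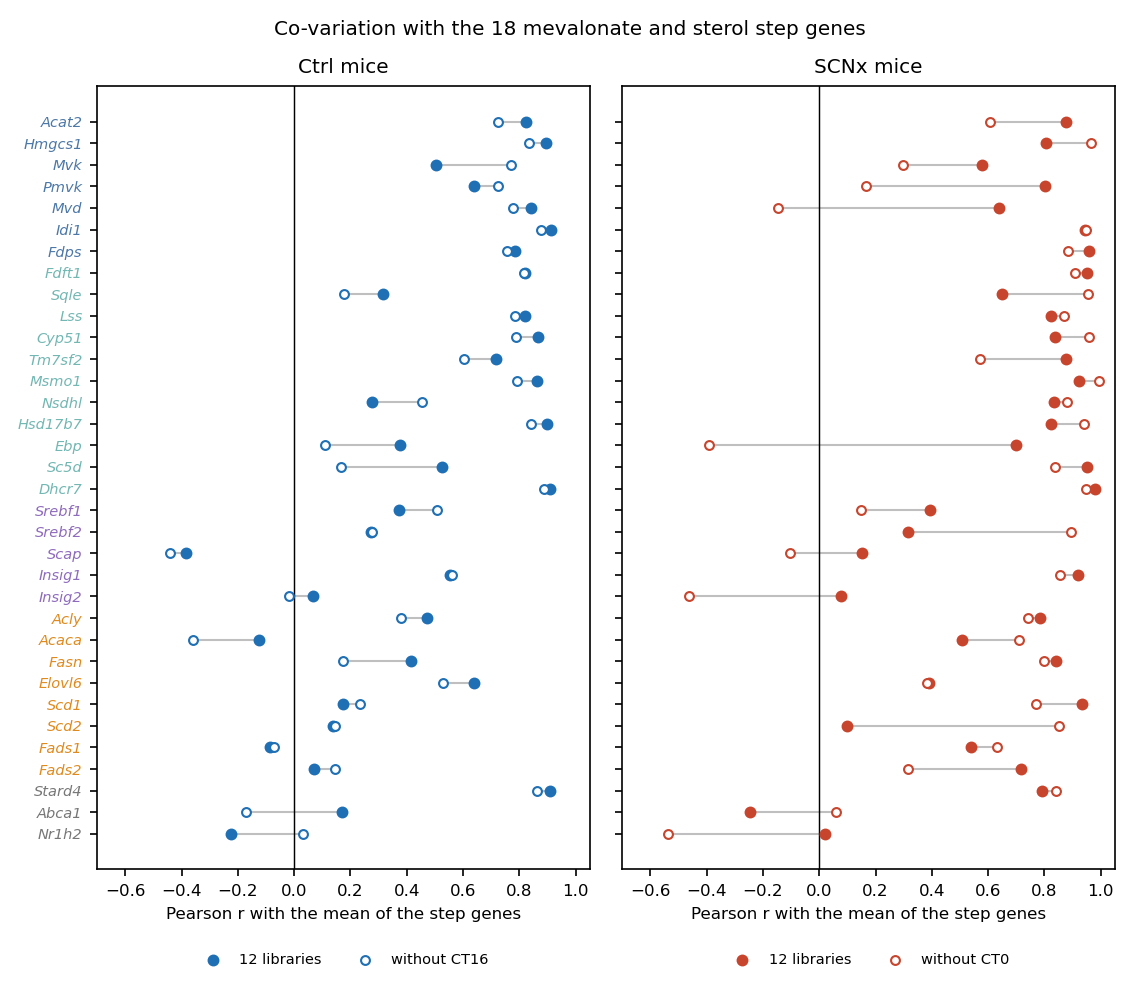
Pearson r of each gene's log2 CPM with the mean of the mevalonate and squalene step genes (the gene itself left out) over the Ctrl mice and over the SCNx mice. Filled points use 12 libraries and open points leave out the library rich in hepatocyte transcripts. Idi1 and Dhcr7 have an r of 0.91 in Ctrl and of 0.94 and 0.98 in SCNx, and in SCNx Scd2 and Srebf2 move to 0.85 and 0.89 once CT0 is left out.

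In Ctrl the members closest to the mean of the other step genes were Idi1 (r of 0.91), Stard4 (0.91), Dhcr7 (0.91), Hsd17b7 (0.90) and Hmgcs1 (0.89), and Nsdhl (0.28) and Sqle (0.31) were the step genes farthest from it. Without Ctrl CT16 the farthest were Ebp (0.11), Sc5d (0.17) and Sqle (0.18), and Nsdhl had 0.45. In SCNx without CT0 the closest were Msmo1 (0.99), Hmgcs1 (0.97), Cyp51 (0.96) and Sqle (0.96). There Srebf2 had an r of 0.89 and Scd2 of 0.85, which with CT0 included were 0.32 and 0.099. In Ctrl the same genes had 0.27 and 0.14. Mvd, Pmvk and Ebp followed the other steps in SCNx only with CT0 included, with an r of 0.64, 0.80 and 0.70 against -0.15, 0.17 and -0.39 without it. Insig1 followed the steps with 0.55 in Ctrl and 0.92 in SCNx (0.86 without CT0), while Insig2 had 0.067 in Ctrl and 0.078 in SCNx (-0.46 without CT0). Insig1 ranged from 57.0 CPM (CT0) through 79.6 CPM to 102 CPM (CT40) in Ctrl and from 49.1 CPM (CT20) through 74.2 CPM to 111 CPM (CT0) in SCNx. Fatty acid genes were loosely tied to the squalene steps in Ctrl, with a median r of 0.23 over 88 pairs, and more closely in SCNx, with 0.61 and, without CT0, 0.70. Whether r differed between the groups was not tested.

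The spread of the step genes among mice is given without a test. The median SD of log2 CPM among mice was 0.17 over the 18 step genes in Ctrl and 0.29 in SCNx, where all tested genes had 0.14 and 0.16. Without Ctrl CT16 and SCNx CT0 the step genes had 0.15 and 0.18, against 0.14 and 0.16 for all genes.

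Of 29 further genes of the pathway listed beside the members, 27 were tested. After adjustment 2 (7.41%, against 10.7% of all tested genes) were rhythmic in Ctrl, namely Lpin1, a phosphatidate phosphatase (peak at 10.2 h, adjusted p of 0.00689 in edgeR), and Abcg1, a sterol exporter (peak at 19.8 h, adjusted p of 0.0474 in edgeR). None was called in SCNx, in the difference of the rhythm or in level. At an unadjusted p under 0.05, 2 (7.41% against 14.8%) had a rhythm in SCNx by edgeR. In level 4 were lower (14.8% against 4.58%) and 0 higher (against 4.78%). The lower ones were Tecr, Npc2, Elovl1 and Mbtps1, a protease that cuts SREBP.

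In KO the step genes were mostly lower at 18 h than at 7 h. The log2 difference of CPM had a median of -0.23 over the 18 step genes, with 13 below and 5 above 0, and of -0.11 over the 34 members. It ranged from -0.66 for Idi1 (68.8 CPM at 7 h and 43.5 CPM at 18 h) to 0.50 for Mvk (5.72 and 8.13 CPM). Over the 13649 tested genes with KO counts the median was -0.013, and 7035 of them lay below 0. The median size of the difference was 0.21 for the members and 0.24 for all tested genes, so that the members did not stand out in size. No Ctrl or SCNx mouse was taken at 18 h, and the nearest times before and after it gave different values. CT20 minus CT8 and CT44 minus CT32 gave medians of 0.084 and -0.0087 over the step genes in Ctrl and of -0.17 and -0.32 in SCNx. CT16 minus CT8 and CT40 minus CT32, equally near to 18 h, gave 0.37 and 0.24 in Ctrl and 0.22 and -0.17 in SCNx, so that no side of 0 can be set beside KO. With CT20 and CT44 as night, Mvd was higher at night in all 5 pairs, by 0.42 in KO, 0.63 and 0.38 in Ctrl, and 0.35 and 0.34 in SCNx. The KO value of Mvd rested on 54 and 83 counts. By these same hours Sqle, Nsdhl and Insig1 were lower at night in all 5 pairs, with KO values of -0.35, -0.13 and -0.32. With CT16 and CT40 as night, Insig1 was instead higher in both Ctrl pairs (84.0 against 80.7 CPM and 102 against 87.2 CPM). Sqle was then higher in the first Ctrl pair only, and Nsdhl in the second only. How many of all tested genes kept to 1 side in all 5 pairs was not counted. Fasn was at 113 CPM at 7 h and 144 CPM at 18 h in KO, Srebf1 at 95.1 and 120 CPM, and Insig1 at 75.4 and 60.3 CPM. Each value is 1 mouse. Between the KO libraries at 7 h and 18 h, summed markers went from 240 to 387 CPM for fibroblasts, from 307 to 446 CPM for oligodendrocytes, from 182 to 264 CPM for neurons and from 46995 to 52426 CPM for epithelium, and their part in the differences was not tested. Arntl, the symbol of Bmal1 in the table, was at 11.1 and 8.92 CPM in KO against a Ctrl mean of 16.3 CPM, but the counts cover the whole gene and not only the deleted part. Astrocyte markers summed to 784 and 929 CPM in KO, where the Ctrl median was 55.6 CPM. Kit, laser capture, RNA integrity, age, tamoxifen, lighting and genotype cannot be told apart in a comparison of KO with Ctrl levels.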

How the data were processed

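ChP RNA was measured by RNA-seq in 12 Ctrl, 12 SCNx and 2 KO mice. Per the labels, STAR and Salmon 1.9.0 were used, and the authors deposited estimated counts per gene, not normalized, from reads mapped to GRCm39. Groups and times were taken from the labels. The counts were rounded, scaled with TMM in edgeR 4.0.16 (R 4.3.3), and genes whose mean CPM reached 1 in each of the groups Ctrl and SCNx entered the tests. A model with 1 mean per group gave the levels, and adding cosine and sine terms of a 24 h period for each group gave the rhythms, both over 24 libraries, by quasi-likelihood F tests with Benjamini-Hochberg adjustment over 13697 genes at 0.05. KO was only described, on log2 CPM with a prior count of 1. The SE of an amplitude was taken from residual log2 CPM about a least-squares curve fitted to that group alone. The amplitude and its p came from the edgeR fit, whose spread is shared by both groups. The SE and the p therefore do not measure the same spread. Each library is a separate mouse. KO values carry counting error at least, and reads had no molecular identifiers. The fits were tested on simulated data. Correlations used log2 CPM.

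The members and lists were chosen with earlier results of these data known. Named by rule were members with the smallest p in each test and representatives of each role, and others are named with the counts they belong to. The alternatives were DESeq2 1.42.0, limma 3.58.1, other filters, normalization and designs, and each library left out. The rank-based rhythm tests of the study were not run. Coordinates and promoters are those of RefSeq on GRCm38.p6, since no GRCm39 reference was used here. No 2 libraries were identical. Figures were drawn with matplotlib 3.10.9.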

Additional observations from a re-analysis of the deposited data

How the results depend on the processing

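The number of members rhythmic in Ctrl was 1 (2.94% against 10.7% of all genes) and rested on few libraries. It was 2 with DESeq2 (5.88% against 15%) and with a minimum mean CPM of 5 (5.88% against 13.4%), Mvd and Elovl6 in both. It was 6 with the Ctrl libraries alone (17.6% against 14.6%) and 4 without Ctrl CT16 and SCNx CT0 (11.8% against 12.3%). It was 0 without a filter on low counts (2.08% of all genes called), with a linear trend over the 44 h (10.6%) and without Ctrl CT4 and SCNx CT32 (16.4%). With time of day as 6 levels, an alternative chosen after seeing the data, it was 0 too (4.26%). Without Ctrl CT16 and SCNx CT0 that edgeR fit gave 2 members (lowest adjusted p of 0.0484), where 529 of 13591 genes were called. Leaving out 1 library at a time gave between 0 and 4, with 0 for Ctrl CT4, CT8, CT16, CT20, CT24, CT36, CT40 or CT44, 2 for SCNx CT8, CT20, CT28 or CT32, and 4 for SCNx CT0. In these fits 6.7% to 16.6% of all genes were called, and without SCNx CT0 11.8% of both members and all genes. Members with a rhythm that differed between the groups numbered 0, and 0 to 1 with a library left out (1 without SCNx CT8, 2.94% against 2.7% of all genes). Counts for level and for a rhythm in SCNx were 0 under all alternatives run. The circadian time as a replicate block, which pairs mice of the same time, gave 0 members for level. With no member called for level, no called level could change sign. Among all level values of members under the alternatives, 73 of 1122 changed sign. Night values taken 4 h earlier (CT16 and CT40, chosen after seeing the data) gave step medians of 0.37 and 0.24 in Ctrl, and 0.22 and -0.17 in SCNx, where the later hours gave 0.084, -0.0087, -0.17 and -0.32. A prior count of 5 left the KO step median at -0.22. The cause of these shifts was not tested. Precision was limited by the single mouse per time, and the lowest group mean of a member in Ctrl or SCNx was 7.65 CPM.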
